A study of Sus scrofa with 8 samples.

Results

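Genes with a symbol that starts with NDUF, the nuclear genes named for respiratory complex I, carried a peak of N6-methyladenosine (m6A) in pig muscle in 26 cases, out of 5650 genes with a peak in at least 1 animal. They were chosen by the symbol that the deposited peak lists give. The lists came from muscle of 2 Landrace and 2 Jinhua males aged 180 days, with no treatment named. Landrace is a Danish breed, and Jinhua is a Chinese breed that lays down more fat within muscle. Each animal gave a library precipitated with an m6A antibody (IP) and an input library, so the 8 samples formed 4 groups of 2, and the study asked how m6A bears on fat deposition in muscle. Each of the 4 lists belongs to 1 animal and gives each gene's peak number, with positions on a transcript and a label for the coding sequence or untranslated region (UTR) in which a peak lies. The lists hold no read counts, enrichment or expression, so the depth is unknown. A gene without a call therefore cannot be told apart from one with little RNA, and in whole muscle fewer cells of a type and less RNA per cell cannot be told apart either.

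Complex I is the entry point of electrons from NADH into the respiratory chain of mitochondria. A matrix arm oxidises NADH and passes the electrons along iron-sulphur clusters to ubiquinone, and a membrane arm pumps protons. Core subunits carry out these reactions, accessory subunits surround them, and assembly factors help build the complex without staying in it. m6A is a mark on adenosines of messenger RNA that reader proteins recognise and that can alter the translation and decay of the transcript. Of 47 NDUF symbols listed by role, 26 were found in the lists, among them 6 nuclear core subunits, 3 of 9 accessory subunits of the matrix arm and 14 of 20 of the membrane arm. The others were NDUFAB1, NDUFAF3 as the single assembly factor of 8, and NDUFA4. The last was named for complex I and is now assigned to complex IV, so the family name is not fully a list of complex I genes. All 26 genes were placed on the same transcript in every list in which they occurred.

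Jinhua 1 had a peak in 22 NDUF genes (84.6%), Jinhua 2 in 21 (80.8%), and Landrace 1 and Landrace 2 in 20 each (76.9%). The corresponding shares over all 5650 called genes were 68.4%, 79.1%, 67.2% and 64.5%. The mean was 21.5 ± 0.707 genes for Jinhua and 20 ± 0 for Landrace (SD, n = 2 each). The number of NDUF peaks did not follow that order, with 24 and 23 in the Jinhua animals and 24 and 23 in the Landrace animals. A call was present in all 4 animals for 15 genes (57.7%), against 43.8% of all called genes, and in a single animal for 2 genes (7.69%), against 24.3%. In 21 of the 26 genes (80.8%) no animal had more than 1 peak, against 52.2% of all called genes. Exactly 1 peak in each of the 4 animals, at 1 common site, was listed for 11 of the 26 (42.3%), against 10.5% of all called genes. These shares are descriptions of 4 lists and were not tested. When a call required a peak of 150 bases or more, the difference of 1.5 genes between the breed means turned to -1.5, and 9 genes were called in all 4 animals. No share over all called genes is given at that width.

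**Figure D1:**
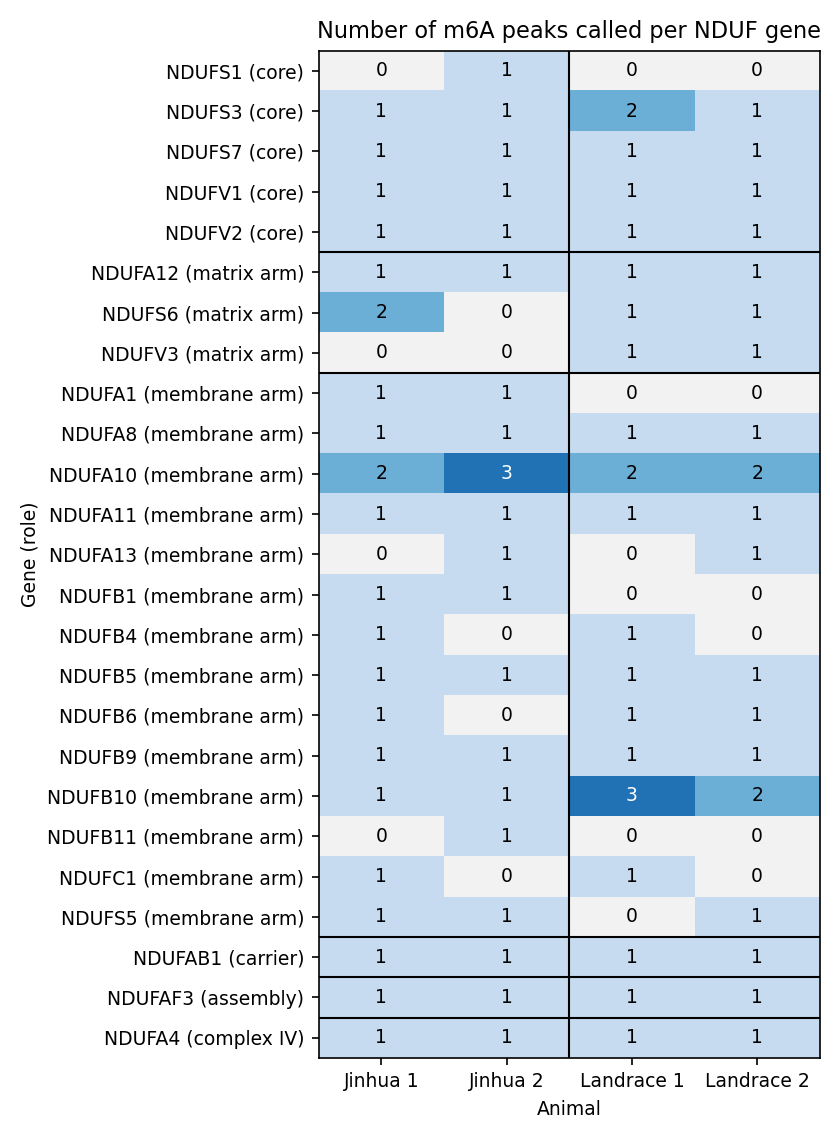
Number of m6A peaks for 25 of the NDUF genes (rows, ordered by role) in each of the 4 animals (columns, Jinhua left of the line and Landrace right); 0 means that the gene is not in that list. In 14 of the 25 rows every animal has a peak, and NDUFA1, NDUFB1 and NDUFV3 are each filled for the whole of a breed and empty for the other.

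**Figure D2:**
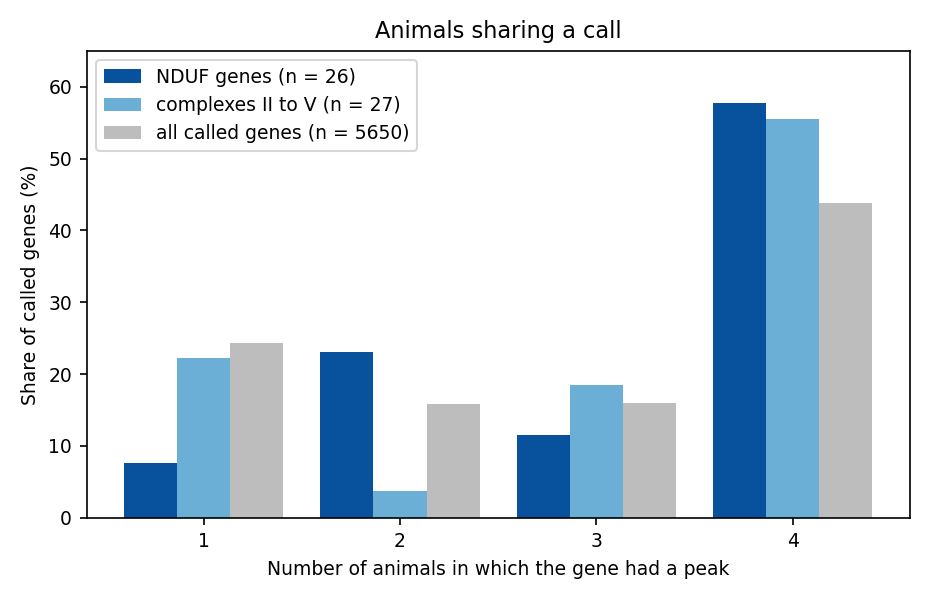
Share of called genes (vertical axis, %) with a peak in 1, 2, 3 or 4 animals, for the 26 NDUF genes, the 27 called genes of complexes II to V and all 5650 called genes. Calls in all 4 animals make up 57.7%, 55.6% and 43.8%.

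Among the core subunits, 5 of the 6 called genes (83.3%) carried a peak in every animal, against 43.8% of all called genes. NDUFV1, the subunit that binds the flavin and oxidises NADH, had 1 peak per animal close to the start of its transcript ENSSSCT00000014099. In the Jinhua animals it spanned bases 67 to 200 and 67 to 220, and in the Landrace animals bases 80 to 180 and 85 to 220. The 4 peaks share 96 bases. NDUFV2, an iron-sulphur protein that sits beside NDUFV1, had a peak from base 1 of ENSSSCT00000004081 in each animal. It ended at base 137 in Jinhua 1 and 138 in Jinhua 2, against base 106 in Landrace 1 and 110 in Landrace 2. Both Jinhua peaks of NDUFV2 thus reached farther than both Landrace peaks. Peak ends also parted the breeds at other NDUF sites, so this was not particular to NDUFV2. Jinhua reached farther at NDUFA8, NDUFA11, NDUFB5, NDUFS3 and the coding site of NDUFA10, and Landrace did at NDUFS7. No share of such sites over all genes is given, so these ends were not set against a background. NDUFS7, which holds the last iron-sulphur cluster before ubiquinone, also had a peak from base 1. On ENSSSCT00000023318 it ended at base 145, 149, 210 and 152, with both Jinhua animals named first here and below where 4 values follow each other. Here the longest peak was that of Landrace 1.

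NDUFS3, a core protein of the matrix arm, was called in every animal, with a shared peak at bases 348 to 507, 353 to 509, 329 to 488 and 345 to 500 of ENSSSCT00000014449, and an additional one at bases 987 to 1146 in Landrace 1. NDUFS1, the largest core subunit, had 1 peak in Jinhua 2 alone, at bases 1 to 133 of ENSSSCT00000017559. The peaks of these core subunits were annotated as coding sequence.

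The 3 called accessory subunits of the matrix arm each followed another pattern. NDUFA12 had 1 peak in every animal, at bases 63 to 180, 57 to 180, 11 to 110 and 45 to 180 of ENSSSCT00000000989, and the Landrace 1 peak lay nearest to the transcript start. NDUFS6, a zinc-binding subunit, had a 3' UTR peak at bases 491 to 646 of ENSSSCT00000018632 in Jinhua 1 and 493 to 646 in both Landrace animals. Jinhua 2 had no NDUFS6 peak, and Jinhua 1 had another in the coding sequence, at bases 49 to 170. NDUFV3, an accessory subunit beside the NADH-oxidising end, was called in both Landrace animals and in neither Jinhua animal. Both peaks began at base 418 of ENSSSCT00000025887, within the coding sequence, and ended at base 550 for Landrace 1 and base 580 for Landrace 2.

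Among the membrane arm subunits, 6 of 14 called genes (42.9%) had a peak in every animal, a share near the 43.8% of all called genes. NDUFA8, a subunit facing the intermembrane space, had peaks that all began at base 13 of ENSSSCT00000006079 and ended at base 176, 180, 168 and 168. NDUFB5 had peaks at bases 87 to 225, 78 to 230, 60 to 213 and 60 to 213 of ENSSSCT00000012875. NDUFB9, a protein of the LYR family that binds the acyl carrier NDUFAB1, had peaks at bases 438 to 663, 497 to 665, 478 to 664 and 499 to 675 of ENSSSCT00000006559. In all 3 the peaks were annotated as coding and the 4 animals overlapped at 1 site. NDUFA11, a subunit embedded in the inner membrane, had its single peak in the 3' UTR instead, spanning bases 979 to 1146, 978 to 1137, 961 to 1128 and 976 to 1133 of ENSSSCT00000024184.

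NDUFA10 and NDUFB10 held most of the peaks beyond the first. NDUFA10, a subunit related to nucleoside kinases, had 3 peaks in Jinhua 2 and 2 in every other animal. Its coding site lay at bases 651 to 840, 639 to 820, 642 to 810 and 648 to 819 of ENSSSCT00000017804. The 3' UTR of NDUFA10 was covered from base 1061 to 1347 by 1 peak in Jinhua 1, and by 2 peaks in Jinhua 2, at bases 1081 to 1231 and 1233 to 1410. Landrace 1 had a peak over bases 1251 to 1400 there and Landrace 2 over bases 1131 to 1354. Jinhua 2 thus had 2 peaks in a stretch where every other list has 1, and the merged site was common to all 4 animals.

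NDUFB10, a membrane arm subunit with cysteines that form disulphide bonds, was the 1 NDUF gene called in all 4 animals whose number of peaks did not overlap between the breeds. The Jinhua animals had 1 peak each, whereas Landrace 1 had 3 and Landrace 2 had 2. The exact permutation test on these 4 numbers gave p = 0.3333, two-sided, which is the smallest value that 2 animals against 2 allow. Every animal had a coding peak at bases 365 to 550 in Jinhua 1, 394 to 554 in Jinhua 2, 365 to 550 in Landrace 1 and 366 to 550 in Landrace 2 of ENSSSCT00000029023. The Landrace animals had in addition a coding peak at bases 133 to 293 and 133 to 291. Landrace 1 alone had a 3' UTR peak, at bases 551 to 749, which adjoins the shared one. Peak numbers that did not overlap between breeds occurred in 4 of 26 NDUF genes (15.4%), 2 in each direction. Over all called genes this held for 14.2%, with Jinhua higher in 9.36% and Landrace higher in 4.85%, so the share was near the background.

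**Figure D3:**
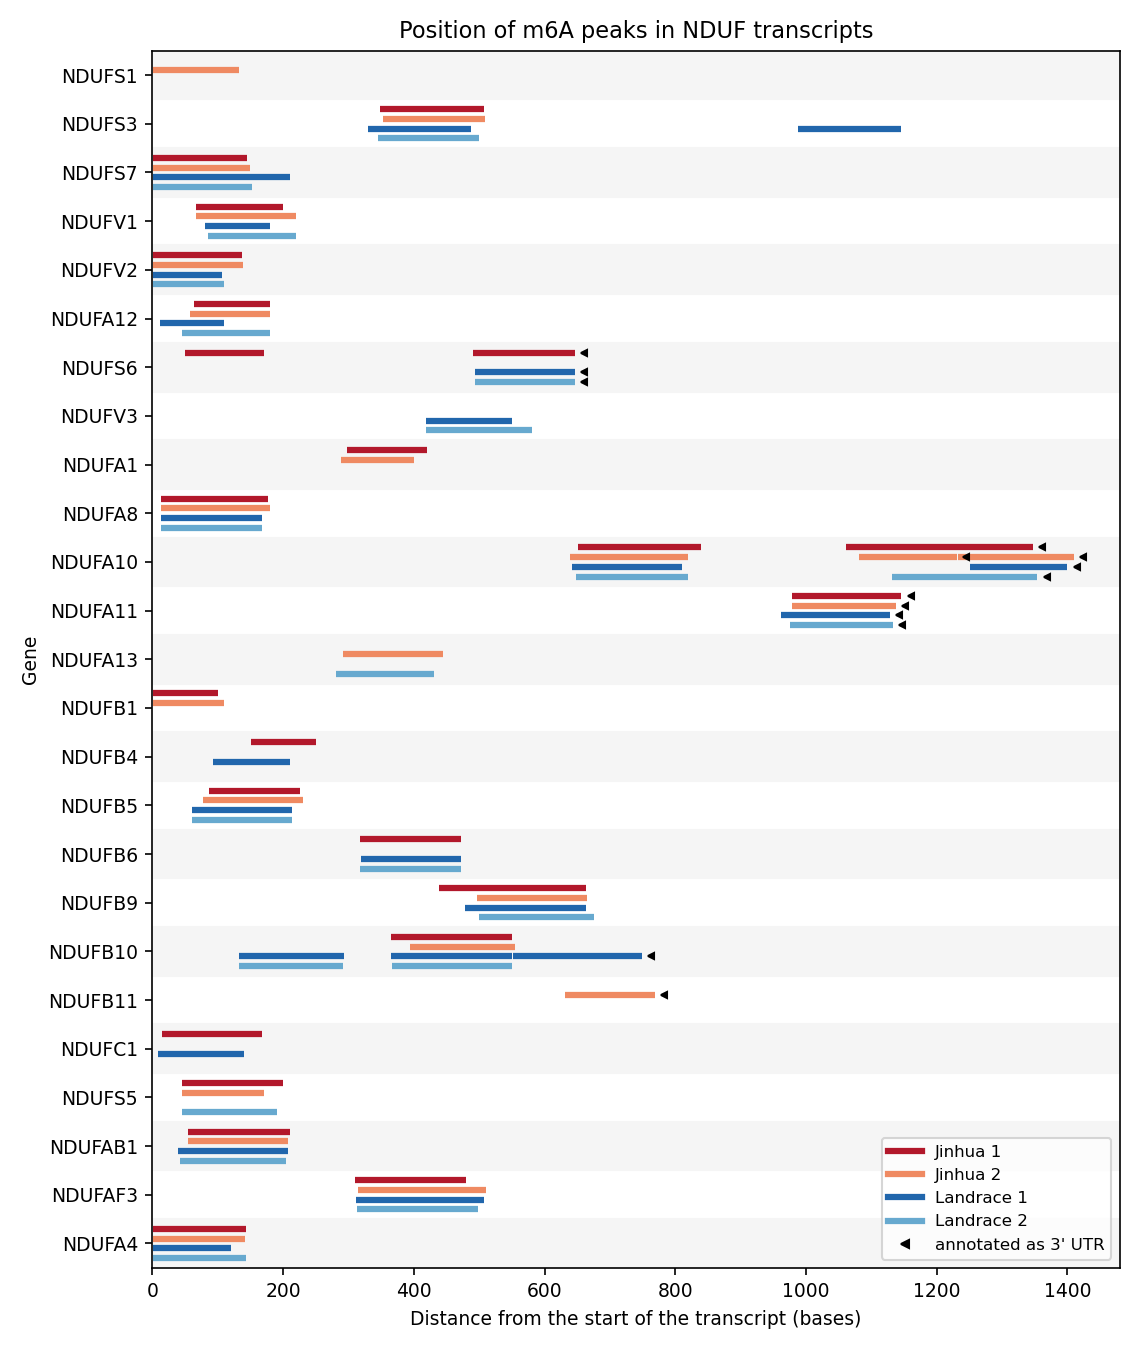
Position of each peak in 25 of the NDUF genes, in bases from the start of its transcript (horizontal axis), with 1 bar per peak coloured by animal and a triangle after each peak annotated as 3' UTR. The 14 genes with a peak in every animal each have a site where bars of all 4 overlap, while NDUFB10 has a site at bases 133 to 293 in the Landrace animals and NDUFA1 and NDUFB1 have a bar of each Jinhua animal and none of a Landrace animal.

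Calls that parted the breeds were made in 3 NDUF genes. NDUFA1, a small membrane arm subunit, had 1 peak in each Jinhua animal, at bases 297 to 420 of ENSSSCT00000035426 in Jinhua 1 and 288 to 400 in Jinhua 2. NDUFB1, another small membrane arm subunit, had bases 1 to 100 of ENSSSCT00000002719 in Jinhua 1 and 1 to 110 in Jinhua 2. Neither gene is in a Landrace list, and NDUFV3, described above, was the Landrace counterpart. The 2 Jinhua-only genes and the 1 Landrace-only gene together make 11.5% of the NDUF genes, against 7.58% of all called genes (5.15% Jinhua-only and 2.42% Landrace-only). For each of the 3 genes the exact permutation test on the number of peaks gave the smallest possible p = 0.3333. None of the NDUFA1 and NDUFB1 peaks reached 150 bases, and of NDUFV3 only the one in Landrace 2 did, so none of the 3 parted the breeds when a peak of that width was required. NDUFS7 was then the 1 gene that parted them, with such a peak in both Landrace animals. With peaks of any width, the count was 7 instead of 3 without Jinhua 1. It was 3 without Jinhua 2, 3 without Landrace 1 and 4 without Landrace 2. In each case a single list decides for 1 breed, and the cause of the rise to 7 was not tested. No share over all called genes is given for these counts.

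The other membrane arm genes were called in some animals in ways that did not part the breeds. NDUFB6 was called in all animals but Jinhua 2, with peaks at bases 317 to 472 of ENSSSCT00000012045 in Jinhua 1, 319 to 472 in Landrace 1 and 317 to 472 in Landrace 2. NDUFS5, whose protein lies on the intermembrane side, lacked a call in Landrace 1 and otherwise began at base 45 of ENSSSCT00000004049 in every list, ending at base 200 in Jinhua 1, 170 in Jinhua 2 and 190 in Landrace 2. These shared edges held across the breeds. NDUFB4 and NDUFC1 were both called in Jinhua 1 and Landrace 1. NDUFB4 lay at bases 151 to 250 and 93 to 210 of ENSSSCT00000029549, and NDUFC1 at bases 14 to 167 and 8 to 140 of ENSSSCT00000009928. NDUFA13, also known as GRIM19, was called in Jinhua 2, at bases 291 to 445 of ENSSSCT00000015222, and in Landrace 2, at bases 281 to 430. NDUFB11 was called in Jinhua 2 alone, with a 3' UTR peak that spanned bases 631 to 769 of ENSSSCT00000013422.

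The remaining NDUF genes were each called in all 4 animals at 1 coding site. NDUFAB1, the mitochondrial acyl carrier protein that is a subunit of both arms, had peaks at bases 54 to 211, 54 to 207, 39 to 207 and 42 to 205 of ENSSSCT00000011811. NDUFAF3, an assembly factor that acts early in building the matrix arm, had peaks at bases 310 to 479, 314 to 511, 312 to 508 and 313 to 498 of ENSSSCT00000012449. NDUFA4 had a peak from base 1 of ENSSSCT00000028465 to base 143, 142, 120 and 143. The RefSeq gene table also lists an NDUFA4 pseudogene, so reads assigned to NDUFA4 are uncertain. The other 7 assembly factors named NDUFAF were not found by symbol in any list.

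Merging overlapping or adjoining peaks over the lists gave 31 NDUF sites, of which 16 (51.6%) had a peak in all 4 animals, 3 in 3 animals, 7 in 2 and 5 (16.1%) in 1. Over the 8294 sites of all genes that had at most 3 peaks per list, 26.0% had a peak in all 4 animals and 40.4% in 1. Both animals of one breed and neither of the other held 4 NDUF sites (12.9%), those of NDUFA1 and NDUFB1 in Jinhua and those of NDUFV3 and the first NDUFB10 site in Landrace, against 9.12% of all such sites (5.79% Jinhua-only and 3.33% Landrace-only). This count was 8 without Jinhua 1, 5 without Jinhua 2, 5 without Landrace 1 and 6 without Landrace 2. No share over all sites is given with an animal left out. In 22 of the 26 genes each site was held by every animal in which the gene was called. The annotated part was the same in every animal for 30 of 31 sites. The exception was the NDUFB10 site, to which the adjoining 3' UTR peak of Landrace 1 was merged. For the 5 sites with a peak in 1 animal this holds by construction, and no share over the sites of other genes is given.

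NDUF peaks lay in coding sequence more often than in any other part. For Jinhua 1 the coding share was 87.5% (95% Wilson interval 69.0 to 95.7) and for Jinhua 2 it was 82.6% (62.9 to 93.0). For Landrace 1 it was 83.3% (64.1 to 93.3) and for Landrace 2 it was 87.0% (67.9 to 95.5). In the other genes with 3 or fewer peaks it was 67.2%, 70.5%, 69.7% and 69.8%. Averaged by breed the NDUF share was 85.1% ± 3.46 for Jinhua and 85.1% ± 2.56 for Landrace (SD, n = 2 each). The rest of the NDUF peaks, 14 of 94, were annotated as 3' UTR, in NDUFA10, NDUFA11, NDUFS6, NDUFB10 and NDUFB11. None of the 94 was annotated as 5' UTR (upper Wilson bound 3.93%), against 7.40% of the peaks of other genes. Whether the transcript models of the NDUF genes hold a 5' UTR was not examined, and all 15 NDUF peaks that started at base 1 were annotated as coding. Several peaks belong to 1 gene and 1 site, so the intervals cover counting error only and treat peaks as independent.

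Many NDUF peaks also began close to the 5' end of the transcript model. The start lay in the first 100 bases for 50% of NDUF peaks in Jinhua 1, 47.8% in Jinhua 2, 41.7% in Landrace 1 and 39.1% in Landrace 2, against 19.9%, 17.9%, 20.1% and 18.7% for other genes. A start at base 1 exactly was listed for 15 of 94 NDUF peaks (16.0%, interval 9.92 to 24.7), those of NDUFV2, NDUFS7, NDUFA4, NDUFB1 and NDUFS1, and for 7.21% of the peaks of other genes. All 15 were annotated as coding. The median start was base 239.5 for NDUF peaks and base 691 for the others. The lists do not give transcript length, and these positions were not set against it. Peak width was alike, with a median of 156 bases in both sets.

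**Figure D4:**
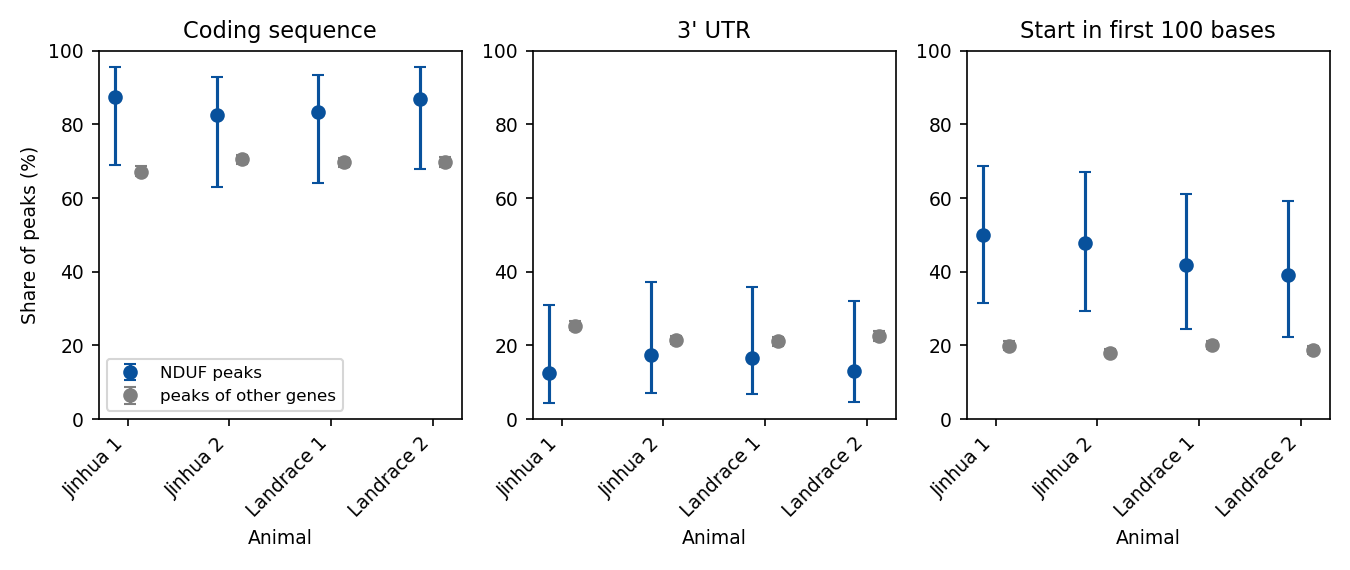
Share of peaks (vertical axis, %) annotated as coding sequence or as 3' UTR, and share that starts in the first 100 bases of the transcript, for NDUF genes and for other genes with 3 or fewer peaks, in each animal; bars are 95% Wilson intervals. NDUF points for the start lie at 39.1% to 50%, and those of other genes at 17.9% to 20.1%.

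Of 13 complex I assembly factors that are not named NDUF, 3 were called. ECSIT, which works with NDUFAF1 and ACAD9 on the membrane arm, had 1 peak in Landrace 1 and 2 in every other animal. Its coding site at bases 241 to 437, 231 to 400, 231 to 398 and 232 to 398 was common to all 4. FOXRED1 had 2 peaks in Jinhua 1 and 1 in Jinhua 2 and none in Landrace, with a common 3' UTR site at bases 1490 to 1643 and 1497 to 1650 of its transcript. It was the 1 breed-specific gene of these 3 (33.3%), against 7.58% of all called genes. ACAD9 had 1 peak in Jinhua 1 alone, at bases 1271 to 1500. Of the 27 called genes of complexes II to V, 15 (55.6%) were called in all 4 animals, against 43.8% of all called genes. ATP5B, the catalytic beta subunit of ATP synthase, was the single breed-specific one (3.70%, against 7.58% of all called genes). It had coding peaks at bases 8 to 250 in Jinhua 1 and 15 to 250 in Jinhua 2.

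Identifiers without a symbol in the lists are not among the 26 genes, but the gene name table names 4 of them NDUF. NDUFA6, which like NDUFB9 belongs to the LYR family, had a peak from base 1 to base 147, 149, 100 and 100 in Jinhua 1, Jinhua 2, Landrace 1 and Landrace 2. NDUFB8, a membrane arm subunit, was also called in all 4, at bases 47 to 160, 11 to 110, 37 to 170 and 37 to 140. NDUFA9, a matrix arm subunit next to the ubiquinone site, had 2 peaks in Jinhua 1, 1 in Jinhua 2 and none in Landrace, with a common coding site at bases 941 to 1060 and 971 to 1100. NDUFA4L2, a relative of NDUFA4, had 2 peaks in Landrace 1 alone. With these 4 included, 17 of 30 genes (56.7%) were called in all 4 animals, against 43.8% of all called genes. The breeds were parted by 4 of the 30 (13.3%), 3 for Jinhua and 1 for Landrace, against 7.58% of all called genes.

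The lists held markers of the tissue that the labels give. The 6 skeletal muscle markers, under 7 identifiers, and the 4 called of 8 fast fibre markers had a peak in every animal. Of 7 slow fibre markers, the Jinhua lists held 3 and 4 and the Landrace lists 2 each. The slow myosin MYH7 had 3 and 4 peaks in Jinhua against 1 and 1 in Landrace, TNNT1 was called in both Jinhua animals alone, MYL2 was called in Jinhua 2 alone, and TNNI1 had 1 peak in every animal. The difference in the number of slow markers called rested on TNNT1 and MYL2, and the share of all called genes with a peak, given above, was also higher in each Jinhua animal than in each Landrace animal. Of 6 adipocyte markers 3 were called in each animal but Landrace 2, which had 2, while ADIPOQ, FABP4 and LEP were in no list by symbol. The endothelial markers PECAM1 and ENG, the macrophage marker CSF1R and the haemoglobin gene HBB were called in every animal, and the monocyte marker CD14 in the Landrace animals alone. The part of fibre types or other cell types in the calls of NDUFA1, NDUFB1 and NDUFV3 that parted the breeds was not tested.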

How the data were processed

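Messenger RNA was sonicated, precipitated with an m6A antibody and made into stranded libraries, per the labels' protocols. The submitters' processing notes name TopHat2 2.0.14, Sscrofa10.2 and susScr3. How peaks were called and which annotation release was used is not given in the sources used here. Lists were deposited for each animal by itself, not pooled. Per the file headers, rows hold the number of peaks and 1-based transcript positions. No genome coordinates or sequences are printed.

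Each list was assigned to an animal through the labels. A gene was called with 1 or more peaks. Peaks that overlapped by 1 base or adjoined on a transcript were merged into sites. Results by position use the 5132 genes that had at most 3 peaks per list, among them all NDUF genes. The gene name table named 520 of 1180 identifiers without a symbol. Counts are described beside those over all called genes, without a test. Single numbers of peaks were compared by exact two-sided permutation, and shares have 95% Wilson intervals. Merging was checked on simulated peaks. Members, lists and roles were chosen with earlier results of these data known. Every NDUF gene is named except 1 that is counted but not reported here. Of other assembly factors the called ones are named, and of complexes II to V the breed-specific ones. Python 3.11.15, SciPy 1.17.1, NumPy 2.4.6 and Matplotlib 3.10.9 were used.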

Additional observations from a re-analysis of the deposited data

How the results depend on the processing

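The alternatives were leaving out each animal, leaving out NDUFA4, a minimum peak width, merging identifiers of one symbol, other rules for merging peaks, counting sites once, and a wider window at the transcript start. Adding the identifiers that the gene name table names NDUF, and leaving out NDUFA4 for the genes called in all 4 animals, were chosen after seeing the data. With a minimum width of 150 bases the difference in NDUF genes called between the breed means turned from 1.5 to -1.5, genes that parted the breeds fell from 3 to 1, and genes called in all 4 animals from 15 to 9. The wider peaks needed for a call make fewer calls by construction, and the cause of the change in direction was not tested. No share over all called genes is given at this width, so whether these changes are particular to NDUF genes is unknown. Leaving out 1 animal gave 3 to 7 genes and 5 to 8 sites that parted the breeds, with 1 list then deciding for its breed. The difference in genes called was 1 to 2, and 15 to 17 genes and 16 to 18 sites were called in every remaining animal. The coding share was 84.3% to 85.9%, and the share of starts at base 1 was 14.1% to 17.1%. A start within the first 50 bases held for 30.8% of NDUF peaks, on average over animals, against 16.0% at base 1. Requiring an overlap of 50% of the shorter peak left 4 sites that parted the breeds, and joining peaks within 100 bases left 3. Replicate numbers are shared between the breeds in the labels but name separate animals, and deviations in the number of peaks of same-numbered animals correlated across the 5650 genes at -0.0227. With the replicate block the difference in genes called was again 1.5. Each block holds 1 animal of each breed, so the block cannot change this difference and adds no check. The lists give no depth, so the number of calls that a deeper library would add is unknown.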

Other observations

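The edges of the NDUF peaks were also set side by side between animals, as a description without a test. In 14 sites where every animal had exactly 1 peak, the 4 starts spanned a median of 15 bases and the 4 ends a median of 22 bases, and 78.0% of the covered stretch was common to all. Over 1839 such sites of other genes the medians were 22 bases, 25 bases and 72.8%. At least 3 animals had the same start at 4 of the 14 sites (28.6%), against 17.8% of the sites of other genes, and the same end at 1 of the 14 (7.14%), against 11.3%. Among the sites with a shared start, those of NDUFA4, NDUFS7 and NDUFV2 began at base 1, before which no peak can begin. That of NDUFA8 began at base 13. The starts at base 1 also enter the median span of 15 bases. Peaks with the same start and the same end in a pair of animals occurred 6 times. NDUFA8 (bases 13 to 168), NDUFB5 (60 to 213) and NDUFS6 (493 to 646) matched between the Landrace animals. NDUFA4 (1 to 143) and NDUFB6 (317 to 472) matched between Jinhua 1 and Landrace 2, and NDUFB10 (365 to 550) between Jinhua 1 and Landrace 1. Of the distinct NDUF peaks of the Landrace pair 6.82% were identical (3 of 44), against 2.74% in other genes, and of those of the Jinhua pair 0 of 47, against 1.32%. The higher share in the Landrace pair thus also held for other genes, and the NDUF counts are small. No NDUF peak was shorter than 100 bases, which was also the shortest width among the peaks of other genes.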
